A study of Mus musculus with 25 samples.

Results

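The axon guidance ligands and receptors were followed in the pituitaries of 25 hpg mice that received GnRH or placebo. The set was taken by gene symbol and held the semaphorins, plexins, neuropilins, ephrins, Eph receptors, Slits, Robos, netrins and Unc5 receptors with a mean of at least 3 on the regularized log2 scale. It had 65 genes out of 47069 in the table and out of 19141 with such a mean, which were the genes tested. They were 20 semaphorins, 9 plexins, 2 neuropilins, 8 ephrins, 13 Eph receptors, 3 Slits, 4 Robos, 2 netrins and 4 Unc5 receptors. Of 67 symbols of these families, Epha8 and Ntn5 stood just outside with means of 2.04 and 1.97, and Efna3 was the lowest inside at 3.61.

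All animals were homozygous for the hypogonadal (hpg) allele, a deletion that removes gonadotropin-releasing hormone (GnRH), so that every group lacked GnRH of its own. Whole pituitaries were taken 1 h after the last of 10 daily intraperitoneal injections of 1 µg GnRH or of saline, which the labels call placebo. The groups were 5 female placebo animals (numbered 1 to 5 here, as in the labels), 6 female GnRH animals (6 to 11), 6 male placebo animals (12 to 17) and 8 male GnRH animals (18 to 25). The series' own text speaks of 5 to 7 animals per condition, and the labels were followed. The sources used here give neither age nor strain background, and each animal gave 1 library of polyadenylated RNA. Effects of the last injection and of the injections before it cannot be told apart in this design.

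Guidance cues are secreted or membrane-bound proteins that steer growing axons and migrating cells. Semaphorins act through plexins, in part with neuropilins as coreceptors. Ephrins, anchored in one cell's membrane, bind Eph receptor tyrosine kinases on its neighbour and can signal both ways. Slits act on Robo receptors, and netrins on Dcc and on the repulsive Unc5 receptors. In the adult the same proteins also work in blood vessels, epithelia and endocrine tissue, and the pituitary holds both a glandular and a neural lobe.

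The libraries had nearly equal medians, from 8.09 to 8.13, and their depth is unknown because the table holds no counts. Of 5 gonadotrope markers, Fshb (2.42), Gnrhr (0.66) and Lhb (0.38) rose and Nr5a1 (-0.38) and Foxl2 (-0.30) fell with GnRH in the difference averaged over the sexes (limma adjusted p at most 0.0230). Their mean, carried mostly by Fshb, lay between 9.00 and 9.53 in placebo females and between 9.74 and 9.92 in GnRH females, and between 8.99 and 9.33 against 9.60 and 10.12 in males. The deleted gene is used by hypothalamic neurons, so pituitary RNA gives no check of the genotype. Single libraries stood apart in tissue content. The mean of the posterior lobe markers was lowest in female placebo animal 2 (6.61) and male GnRH animal 19 (6.80), and Schwann and oligodendrocyte markers were highest in females 5, 6 and 7 (8.77, 9.29 and 8.39). In bulk tissue, fewer cells of a type and less RNA per cell cannot be told apart.

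Across the whole gland the guidance receptors Plxnb1, Plxnb2 and Unc5a were the most abundant members. Levels between genes were compared per length, as the mean regularized log2 value minus the log2 of the kilobases of exon in GENCODE. That length joins the exons of all transcripts of a gene, so it can exceed the length of any single RNA. On that scale Plxnb1 stood at 9.39 and Plxnb2 at 9.38, both receptors of class 4 semaphorins, and the netrin receptor Unc5a stood at 9.30. The next were Plxna3 (8.29), a receptor for class 3 semaphorins, and the ligands Sema3f (8.13) and Sema4b (7.89). The rank of Plxnb1 over Plxnb2 and Unc5a rests on small differences and on the exon lengths used, 9592, 7720 and 4168 bases, and was not tested. Sema3f is a secreted ligand that acts through Nrp2, and Nrp2 itself stood at 5.82 per kb, with Nrp1 at 6.34.

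The ephrins were led by Efnb2 (7.48 per kb), Efna5 (7.36), Efnb1 (7.34) and Efna1 (7.31), whereas the Eph receptors had lower values, from 2.25 for Epha6 to 6.38 for Ephb4. Slit1 (7.01 per kb) was the highest of the Slits, and Robo4 (6.27) of the Robos. These ranks rest on the joined exon lengths. Without division by length, Slit2 (9.65) stood over Slit1 (9.58), and Robo2 (9.45) over Robo4 (8.67). The 2 netrins Ntn4 and Ntn1 stood at 5.70 and 5.39. The lowest members were Sema5b (1.56 per kb), Sema3c (2.07), Epha6 (2.25) and Efna3 (2.33). An offset of 1 on this scale is a factor of 2, but regularized values are shrunken, so the offsets between low and high genes are approximate.

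The members varied more between animals of a group than a typical gene, with a median within-group SD of 0.151 against 0.116 for all genes tested. The widest was Sema3b, a secreted semaphorin, with an SD of 0.284, followed by the ligand Slit2 (0.269), its receptors Robo1 (0.259) and Robo2 (0.257), and Slit3 (0.253). Nrp1 (0.0822) and Efna3 (0.0695) had some of the smallest SDs. Efna3 has the lowest mean of the members, where regularized values are shrunken most, so its SD may be understated. Sema3b read 5.67, 5.74, 5.77, 5.99 and 6.43 in placebo animals 1 to 5, and from 5.84 through a median of 5.91 to 7.03 in GnRH females. Its male values lay between 5.70 and 6.09. The 3 animals with the highest Sema3b, numbers 6 (7.03), 7 (6.47) and 5 (6.43), were the 3 with the highest Schwann and oligodendrocyte markers. Animals 6 and 7 also had the highest pericyte and fibroblast means of all animals (10.30 and 10.24), and animal 5 the highest blood marker mean (14.07). The part of these lists in the Sema3b values was not tested.

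**Figure D1:**
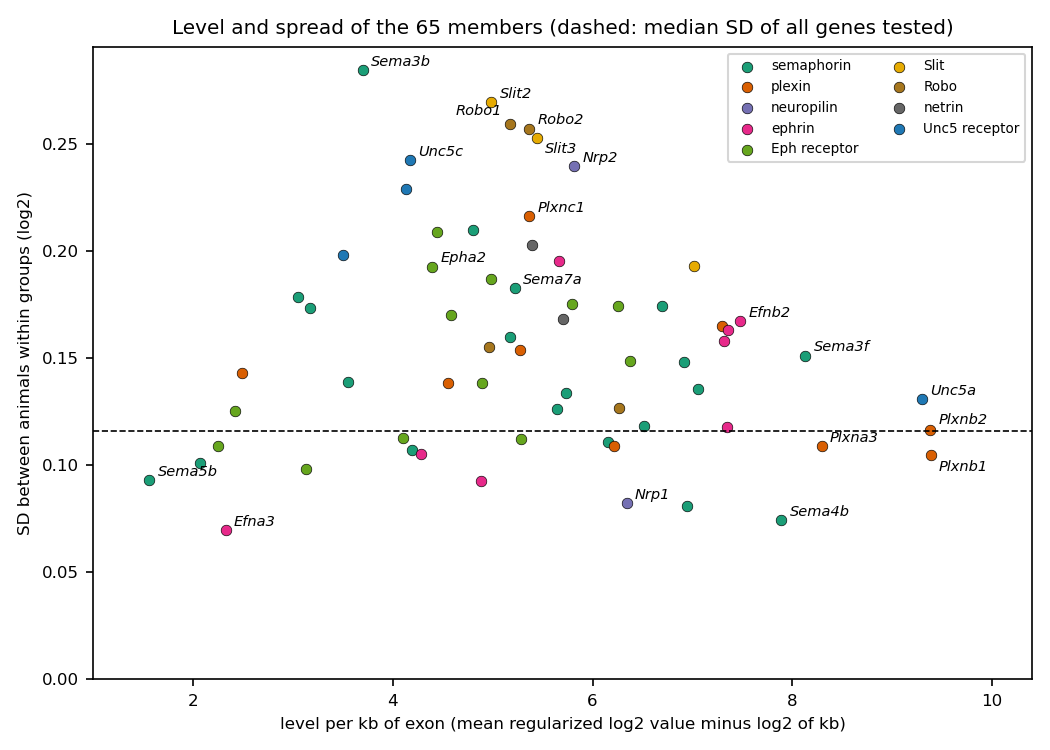
Level per kb of exon (x axis, regularized log2 minus log2 of kb) against the SD between animals within groups (y axis, log2) for the 65 members, coloured by family; the dashed line is the median SD of all genes tested, 0.116. Plxnb1, Plxnb2 and Unc5a lie far right, and Sema3b, Slit2, Robo1, Robo2 and Slit3 lie highest.

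Slit2 and Robo1 had wide ranges in the same group of animals. In GnRH females Slit2 read 9.44, 9.19, 9.99, 10.05, 9.45 and 9.26 in animals 6 to 11, and Robo1 read 8.93, 8.91, 9.60, 9.61, 8.84 and 8.81. Animals 8 and 9 were the highest of this group for both genes, and the other 4 lay below them by at least 0.5 in each. Robo2 was likewise highest there in animals 8 and 9 (9.75 and 9.91), and lowest in animal 10 (8.85). Animals 8 and 9 were also the highest of this group for Epha4 (7.67 and 7.72), Efna5 (9.34 and 9.44), Efnb2, Unc5c and Plxnc1. Other named members differed, such as Sema3b, highest in animal 6. The pattern was thus not particular to Slit and Robo genes. It was noticed after the values were seen and carries no test.

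GnRH against placebo, averaged over the sexes with equal weight, asked which guidance genes differ with treatment when all 25 animals are used. Of the 65 members 4 passed the threshold (6.15%), all of them higher with GnRH, while 1.71 percent of all genes tested passed, and 1.42 percent passed as higher. They were the ligands Efna3 and Sema7a and the receptors Nrp2 and Epha2. The threshold was a limma adjusted p under 0.05, by the Benjamini-Hochberg method over all genes tested. At an unadjusted p under 0.05 there were 14 members, 9 higher and 5 lower (21.5%), against 12 percent of all genes. The median difference of the members was -0.014 on the log2 scale, against -0.00088 for all genes, and 28 members were positive and 37 negative. The calls were few and fragile: leaving out 1 animal at a time gave between 1 and 4 called members, and Efna3 alone passed in all 25 of these fits. The called members were not always among these 4, since without animal 2 a different member passed beside Efna3.

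**Figure D2:**
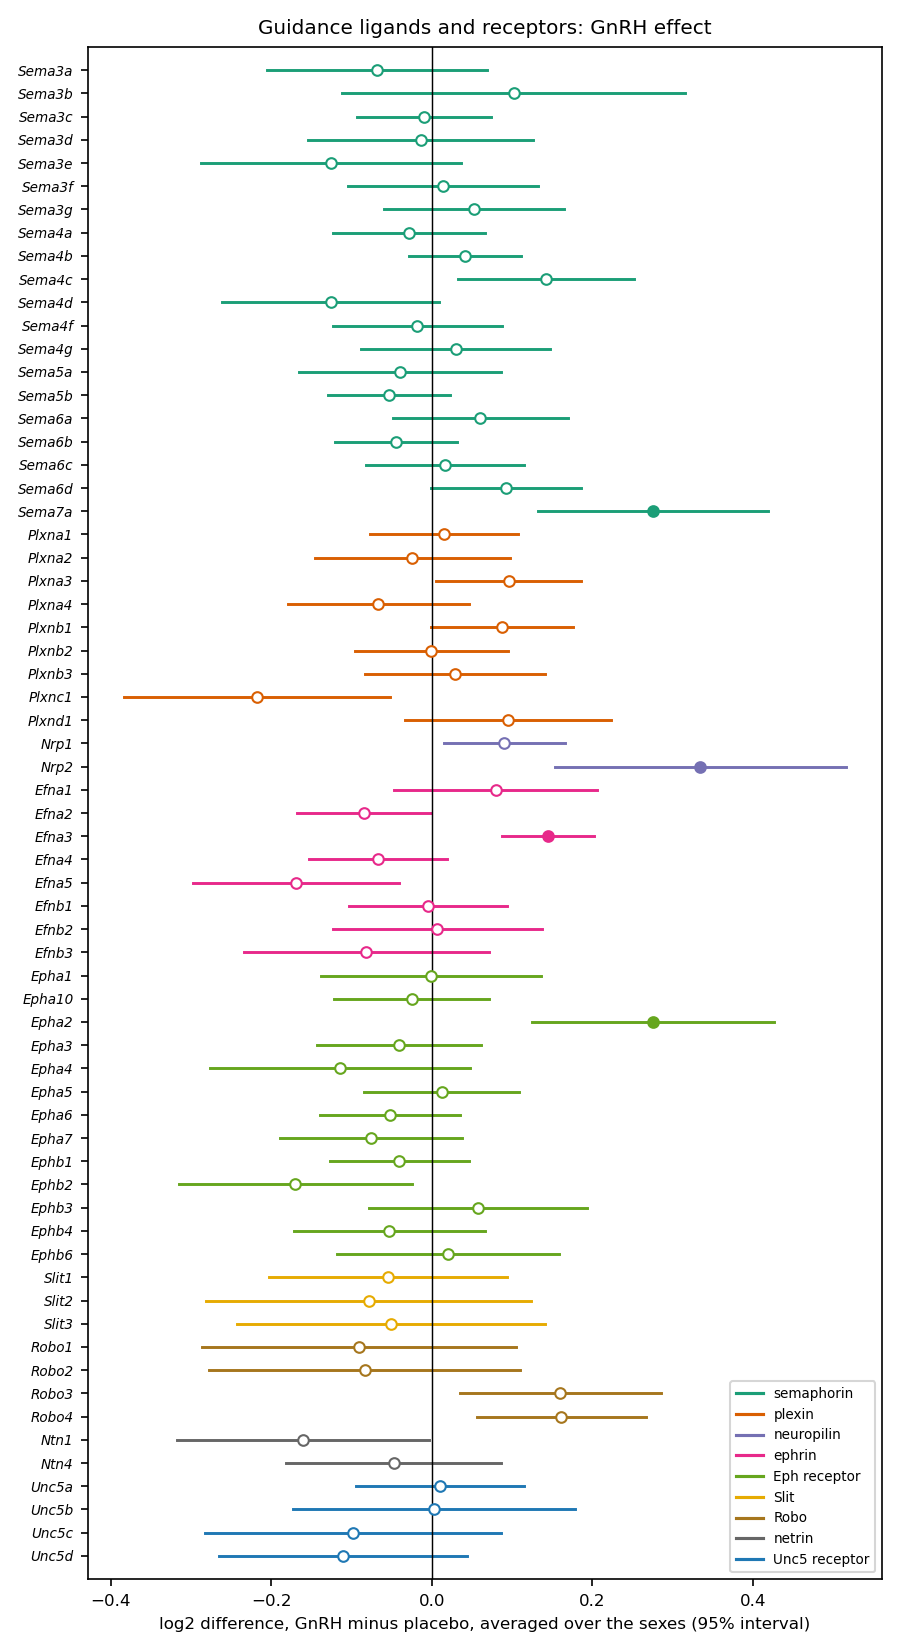
Log2 difference, GnRH minus placebo averaged over the sexes (x axis), for each of the 65 members (rows, coloured by family), with 95% intervals that are not adjusted for the number of genes; filled points have an adjusted p under 0.05. The filled points are Sema7a, Nrp2, Efna3 and Epha2, all right of 0, and Plxnc1 has the lowest value, -0.22.

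The sequence before the start of each of the 4 called genes is shown because these are the members that passed with GnRH treatment. Of the motifs searched, those of AP-1 and EGR belong to early-response transcription factors. The windows are RefSeq's for GRCm38.p6, on the gene's strand from 5′ to 3′. Each ends at the base before the start given by RefSeq, or before the GENCODE gene where that begins earlier. Capitals mark a match to one of 3 motifs on either strand. These were TGACGTCA (the cAMP response element), TGANTCA (a loose form of the AP-1 site) and GCGTGGGCG (an EGR site). N stands for any base, so not every TGANTCA match is an AP-1 site. No match of one overlapped a match of another in these 4 windows.

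Efna3 (chr3:89322966-89323189, minus strand): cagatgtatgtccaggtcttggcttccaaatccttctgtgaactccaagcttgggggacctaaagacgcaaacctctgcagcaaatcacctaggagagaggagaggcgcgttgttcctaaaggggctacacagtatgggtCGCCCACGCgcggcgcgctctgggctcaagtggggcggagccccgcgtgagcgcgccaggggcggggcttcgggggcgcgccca

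Sema7a (chr9:57939862-57940111, plus strand): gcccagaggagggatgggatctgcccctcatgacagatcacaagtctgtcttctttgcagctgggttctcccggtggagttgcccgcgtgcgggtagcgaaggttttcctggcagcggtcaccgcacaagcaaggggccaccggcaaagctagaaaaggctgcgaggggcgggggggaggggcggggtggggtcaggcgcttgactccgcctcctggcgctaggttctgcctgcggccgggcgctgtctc

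Nrp2 (chr1:62703067-62703284, plus strand): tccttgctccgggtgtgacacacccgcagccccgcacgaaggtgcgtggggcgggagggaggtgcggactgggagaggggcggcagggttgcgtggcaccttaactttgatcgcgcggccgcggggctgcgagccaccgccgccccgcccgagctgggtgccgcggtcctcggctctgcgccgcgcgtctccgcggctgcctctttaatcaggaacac

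Epha2 (chr4:141300971-141301220, plus strand): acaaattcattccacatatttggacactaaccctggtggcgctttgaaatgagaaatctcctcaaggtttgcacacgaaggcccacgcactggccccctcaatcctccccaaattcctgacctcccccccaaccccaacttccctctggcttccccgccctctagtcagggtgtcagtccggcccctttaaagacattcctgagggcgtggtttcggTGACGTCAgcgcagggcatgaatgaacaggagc

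The Epha2 window held TGACGTCA, beginning 33 bases before the RefSeq start, and the Efna3 window held the reverse complement of GCGTGGGCG, beginning 110 bases before it. In the windows of Sema7a and Nrp2 none of the 3 letter strings was found. Of 32851 windows of 250 bases in the RefSeq table, 1.55% held TGACGTCA, 6.75% TGANTCA and 0.536% GCGTGGGCG. Of the 65 members, 56 had a window, 72 windows in all, and TGACGTCA was found for Epha2 alone, GCGTGGGCG for Efna3 and Plxna2, and TGANTCA for Sema4c, Sema4d and Sema6b. The member windows were rich in G and C, with a median of 64.4% against 52.4% in all windows. These are matches of letters and were not tested as binding sites.

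Efna3 (ENSMUSG00000028039, chromosome 3, 89313899 to 89322965, minus strand) encodes ephrin-A3, a lipid-anchored ligand of EphA receptors. It read 3.54, 3.55, 3.53, 3.53 and 3.51 in placebo females and 3.58, 3.81, 3.74, 3.62, 3.63 and 3.68 in GnRH females. All 6 treated females lay above every placebo female (exact two-sided permutation p = 0.00433). The exact p-values here and below are not adjusted. They are for genes picked by their limma p in the same animals, so they are no separate support. Placebo males ran from 3.48 through a median of 3.51 to 3.60 and GnRH males from 3.54 through 3.70 to 3.76, and 6 of 8 treated males lay above every placebo male (exact two-sided permutation p = 0.00533). The averaged log2 difference was 0.14 (SE 0.028, limma adjusted p = 0.00323), a fold of 1.11 on this scale. The difference was of like size in females (0.14, adjusted p = 0.221) and males (0.15, adjusted p = 0.0773). This is the member with the lowest level, where shrinkage of the deposited values is strongest, and an antisense gene, Gm15998, overlaps it on the other strand. The sources used here do not say whether the authors counted by strand.

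Sema7a (ENSMUSG00000038264, chromosome 9, 57940112 to 57962865, plus strand) encodes a lipid-anchored semaphorin that binds Plxnc1 and integrins. Its values were 6.89, 6.63, 6.74, 6.89 and 7.00 in placebo females and 7.12, 7.02, 7.28, 7.11, 7.00 and 7.20 in GnRH females, where 5 of 6 lay above every placebo female (exact two-sided permutation p = 0.00433). In males the groups overlapped more, from 6.55 through 6.73 to 7.06 in placebo and from 6.70 through 6.98 to 7.38 in GnRH (exact two-sided permutation p = 0.0466). The averaged difference was 0.28 (SE 0.070, limma adjusted p = 0.0370). It passed in 13 of 25 fits that left out 1 animal, and missed without animals 2, 3, 4, 6, 8, 11, 13, 14, 16, 18, 20 or 25, with an adjusted p of up to 0.0823.

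Nrp2 (ENSMUSG00000025969, chromosome 1, 62703285 to 62818695, plus strand) encodes neuropilin-2, the coreceptor for Sema3f and for a lymphatic growth factor of the VEGF family. Placebo females read 9.36, 8.75, 9.39, 9.23 and 9.29, and GnRH females 9.55, 9.39, 9.56, 9.83, 8.95 and 9.61. Animal 10, at 8.95, was the only treated female below the highest placebo female (exact two-sided permutation p = 0.147). Placebo males ran from 9.05 through 9.14 to 9.45 and GnRH males from 9.17 through 9.56 to 9.89 (exact two-sided permutation p = 0.00566), and 5 of 8 treated males lay above every placebo male. The averaged difference was 0.33 (SE 0.088, limma adjusted p = 0.0468), the largest of the members. It passed in 5 of 25 fits that left out 1 animal (those without 1, 3, 10, 14 or 19) and reached an adjusted p of 0.0926 in the others. An antisense gene, Gm29083, and Gm37121 overlap it.

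Epha2 (ENSMUSG00000006445, chromosome 4, 141301240 to 141329384, plus strand) encodes a receptor tyrosine kinase for A-type ephrins. It read 6.36, 6.46, 6.53, 6.54 and 6.39 in placebo females and 6.81, 6.57, 6.98, 6.52, 6.78 and 6.67 in GnRH females (exact two-sided permutation p = 0.0152). Placebo males ran from 6.32 through 6.48 to 6.55 and GnRH males from 6.40 through 6.73 to 7.14 (exact two-sided permutation p = 0.0366). The highest of all animals were GnRH males 18 and 21 (7.14 and 7.06), GnRH female 8 (6.98) and GnRH male 20 (6.95), and the groups overlapped in both sexes. The averaged difference was 0.28 (SE 0.073, limma adjusted p = 0.0490), and it passed in 4 of 25 fits that left out 1 animal, those without 9, 19, 23 or 24. Males 18 and 21 also had the highest mean of 13 immediate early genes (11.30 and 11.35, with male GnRH animal 20 next at 10.53). Among GnRH females the order was otherwise, as animal 9 had the highest such mean (10.14) and the lowest Epha2 (6.52). The relation of Epha2 to this mean was not tested. Without males 18 and 21, the averaged Epha2 difference was 0.22 (limma adjusted p = 0.0898).

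**Figure D3:**
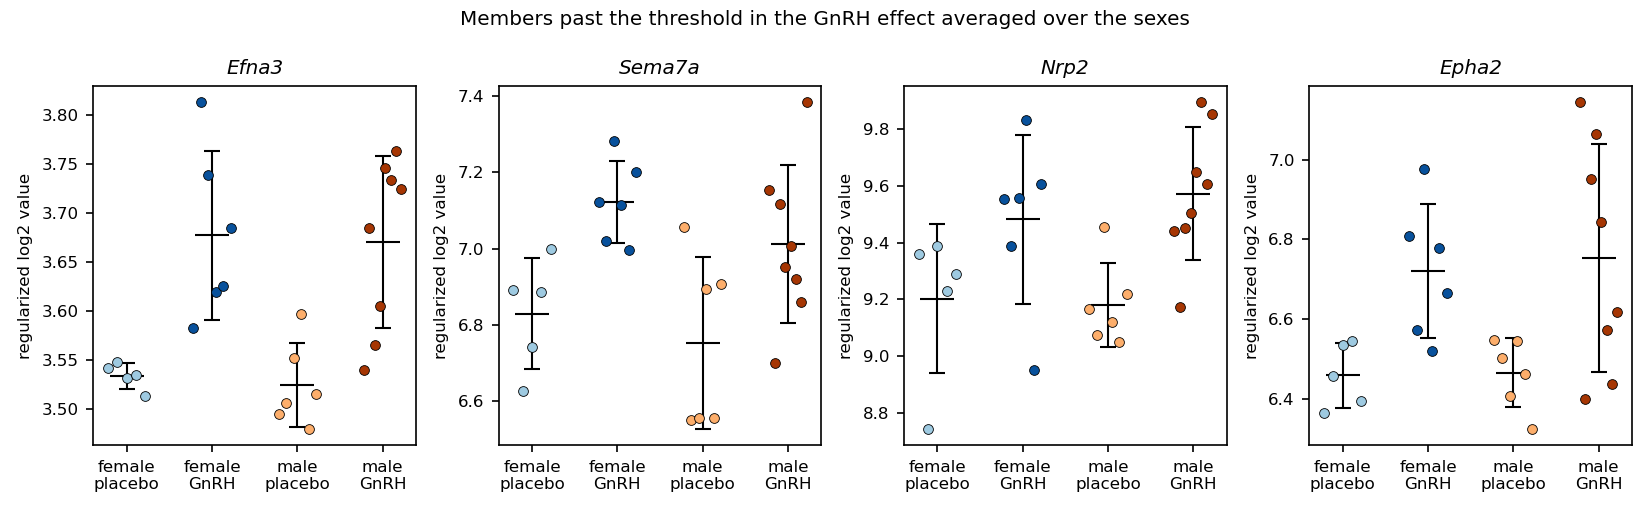
Regularized log2 values of Efna3, Sema7a, Nrp2 and Epha2 (y axes, each on its own range) in every animal of the 4 groups (x axis), with the group mean and SD as bars. In Efna3 all 6 GnRH females lie above the 5 placebo females, and in the other 3 genes the groups overlap in both sexes.

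Of 8 endothelial markers, 3 passed as higher with GnRH in the averaged comparison and 8 had positive differences, with a median of 0.13 on the log2 scale. The mean of the 8 lay between 8.87 and 9.07 in placebo females, 8.99 and 9.28 in GnRH females, 8.92 and 9.01 in placebo males, and 8.92 and 9.30 in GnRH males. None of them was near 0, since the lowest, Cldn5, had a mean of 5.09. With that mean as a covariate, an alternative added after seeing the data, the averaged differences were 0.07 for Nrp2 (adjusted p = 0.853), 0.14 for Sema7a (0.667) and 0.17 for Epha2 (0.626). For Efna3 the value was 0.15 (0.208), as large as without the covariate. Over all genes tested, 10 passed with the covariate in place of 327, so the loss of calls was not particular to the members. The covariate itself differed with treatment, so its part in these differences cannot be told apart from that of GnRH.

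Across animals within groups, Nrp2 had a slope of 1.78 per unit of the endothelial mean (SE 0.43, limma adjusted p = 0.151), which missed the threshold that 0.0418 percent of all genes passed. The correlation over 25 animals, centred by group, was Pearson's r = 0.651 (permutation p = 0.0027) and Spearman's coefficient 0.450 (permutation p = 0.039). Without the 2 animals farthest from the median marker level (6 and 25), r was 0.656 over 23 animals. This pair was picked after its values were seen, among 390 relations of the members to marker lists. Robo4, the Robo of blood vessels, had the next smallest p on this list (slope 0.91, SE 0.27, adjusted p = 0.360).

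Robo4 itself was the member nearest to the threshold after the called genes, with an averaged difference of 0.16 (SE 0.051, adjusted p = 0.131). It read 8.67, 8.38, 8.66, 8.48 and 8.67 in placebo females and from 8.58 through 8.73 to 8.85 in GnRH females. In males it ran from 8.45 through 8.60 to 8.79 in placebo and from 8.57 through 8.78 to 8.93 with GnRH (exact two-sided permutation p = 0.0423). Robo3 had a similar value, 0.16 (adjusted p = 0.241), whereas Robo1 and Robo2 had negative ones.

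The 5 members with negative differences at an unadjusted p under 0.05 were Plxnc1, Ephb2, Efna5, Ntn1 and Efna2, and 0 of them passed the adjusted threshold with limma. Plxnc1, a receptor of Sema7a, had an averaged difference of -0.22 (SE 0.081, adjusted p = 0.230). Its values were 8.49, 7.94, 8.88, 8.67 and 8.62 in placebo females and from 7.97 through 8.35 to 8.46 in GnRH females, and from 8.30 through 8.58 to 8.76 in placebo males and from 8.18 through 8.34 to 8.56 in GnRH males. Efna5, a ligand of EphA receptors, had a difference of -0.17 (SE 0.062, adjusted p = 0.228), and the receptor Ephb2 had one of -0.17 (SE 0.071, adjusted p = 0.301). The netrin Ntn1 stood at -0.16 (SE 0.077, adjusted p = 0.402). With libraries weighted by their quality Plxnc1 (-0.27, adjusted p = 0.0335) and Efna5 (-0.23, adjusted p = 0.0139) passed as well, in a fit that called 942 genes in place of 327.

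On the regularized scale the differences of the other members were small. The scale understates differences, most for genes with few reads, so the intervals here do not bound a change in the RNA itself. The 95% intervals of the averaged differences of 64 of 65 members lay within 0.5 of 0 on the log2 scale, and the widest bound was that of Nrp2, 0.52. Of the most abundant members, Plxnb1 differed by 0.09 (SE 0.043, adjusted p = 0.419). It read from 12.46 to 12.83 in placebo females, 12.58 to 12.97 in GnRH females, 12.54 to 12.68 in placebo males and 12.56 to 12.74 in GnRH males. Among the families 0 of 9 plexins, 0 of 3 Slits, 0 of 4 Robos, 0 of 2 netrins and 0 of 4 Unc5 receptors passed with limma, with 2, 0, 2, 1 and 0 members at an unadjusted p under 0.05. With 1.71 percent of all genes past the threshold and 12 percent at that unadjusted p, counts of 0 in families this small carry no information.

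GnRH against placebo in females alone called 0 of 65 members with limma, where 0.0993 percent of all genes passed. At an unadjusted p under 0.05 there were 10 members, 6 higher and 4 lower, against 9.57 percent of all genes. The smallest p belonged to Nrp1, neuropilin-1, the coreceptor for Sema3a and for VEGF. It read 9.61, 9.42, 9.65, 9.60 and 9.47 in placebo females and 9.84, 9.77, 9.85, 9.81, 9.61 and 9.68 in GnRH females, where 5 of 6 lay above every placebo female. The difference was 0.21 (SE 0.055, adjusted p = 0.149, exact two-sided permutation p = 0.0108), and without animal 10 it passed (adjusted p = 0.0458). Efna3 was the only member whose female groups did not overlap, against 0.768 percent of all genes.

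In males alone 0 of 65 members passed with limma, where 0.496 percent of all genes did. At an unadjusted p under 0.05 there were 7 members, 6 higher and 1 lower, against 6.42 percent of all genes. The smallest p values were those of Efna3, Nrp2 (0.39, SE 0.12, adjusted p = 0.195), Epha2 (0.29, SE 0.098, adjusted p = 0.329) and Sema7a (0.26, SE 0.093, adjusted p = 0.412). For 0 members did the male groups fail to overlap, against 0.402 percent of all genes. The GnRH differences had the same sign in both sexes for 42 of 65 members, 64.6%, and for 60.6 percent of all genes.

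Tested against each other, the male and female GnRH effects differed past the threshold for 0 of 65 members with limma, and for 0 percent of all genes. At an unadjusted p under 0.05 there were 2 members, Nrp1 and Efnb2, against 2.76 percent of all genes. In males, Nrp1 placebo animals ran from 9.52 through 9.61 to 9.72 and GnRH animals from 9.50 through 9.59 to 9.68 (difference -0.03, exact two-sided permutation p = 0.432). The effect in males minus that in females was -0.24 for Nrp1 (SE 0.074, unadjusted p = 0.0031, adjusted p = 0.999). Efnb2, a ligand of EphB receptors and a marker of arteries, read 10.47, 10.34, 10.27, 10.31 and 10.38 in placebo females and from 10.00 through 10.13 to 10.45 in GnRH females. Placebo males ran from 9.94 through 10.13 to 10.43 and GnRH males from 9.95 through 10.37 to 10.51. The effect in males minus that in females was 0.34 for Efnb2 (SE 0.13, unadjusted p = 0.0126, adjusted p = 0.999).

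**Figure D4:**
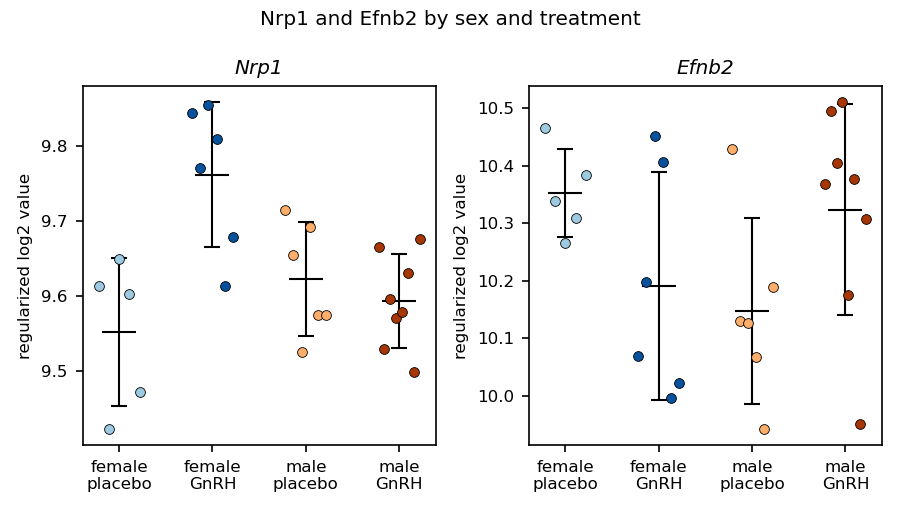
Regularized log2 values of Nrp1 and Efnb2 (y axes) in every animal of the 4 groups (x axis), with the group mean and SD as bars. Nrp1 is higher in GnRH females, with a mean of 9.76, than in the other 3 groups, whose means are 9.55, 9.62 and 9.59.

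Males were then compared with females. Within placebo 0 of 65 members passed with limma, where 0.047 percent of all genes did, and 2 had an unadjusted p under 0.05 against 3.07 percent of all genes. Those were the ligands Efna2 (-0.14, SE 0.061, adjusted p = 0.999) and Efnb2 (-0.21, SE 0.095, adjusted p = 0.999), both with lower values in males. Within GnRH 0 of 65 passed, where 0.0522 percent of all genes did, and 4 had an unadjusted p under 0.05 against 5.53 percent. Nrp1 had the smallest p, with a difference of males minus females of -0.17 (SE 0.049, adjusted p = 0.574), and 5 of 8 males lay below every female. Sema3b had the largest difference, -0.32 (SE 0.14, adjusted p = 0.862), in a comparison that holds the 2 GnRH females, 6 and 7, whose Schwann and oligodendrocyte markers stood apart. Without animal 6 it was -0.14.

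The levels of 6 marker lists (melanotropes, stem and folliculostellate cells, posterior lobe, endothelium, pericytes and fibroblasts, macrophages) gave 390 relations to the members within groups. Of these, 1 passed, that of Plxnc1 to the posterior lobe markers, where 0.481 percent of all genes passed. On the other lists 0 of 65 members passed with limma, where 0.428 percent of all genes did for macrophages, 0.23 percent for melanotropes, 0.0784 percent for pericytes and fibroblasts, 0.0418 percent for endothelium and 0 percent for stem and folliculostellate cells. At an unadjusted p under 0.05 there were 14 members on the posterior lobe list, against 5.99 percent of all genes, and 7 for macrophages, against 12.8 percent. There were 10 for melanotropes against 6.34 percent, 6 for pericytes and fibroblasts against 8.94 percent, 12 for endothelium against 5.62 percent, and 16 for stem and folliculostellate cells against 10.5 percent. Plxnc1 rose by 0.43 per unit of the marker mean (SE 0.099, limma adjusted p = 0.0425). The correlation was Pearson's r = 0.679 (permutation p = 0.0045) and Spearman's coefficient 0.485 (permutation p = 0.013) over 25 animals. Without animals 2 and 19, the farthest from the median, r fell to 0.431 over 23 animals, so the relation rests in part on these animals. It passed in 11 of 25 fits that left out 1 animal, and missed without animals 1, 2, 3, 4, 5, 6, 11, 16, 17, 18, 20, 21, 23 or 24, with an adjusted p of up to 0.864. Animal 2 had the lowest Plxnc1 of all, 7.94, and animal 19 read 8.20. The neighbouring value was that of Sema3f on the stem and folliculostellate markers, with a slope of 0.95 (SE 0.20, adjusted p = 0.0776).

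**Figure D5:**
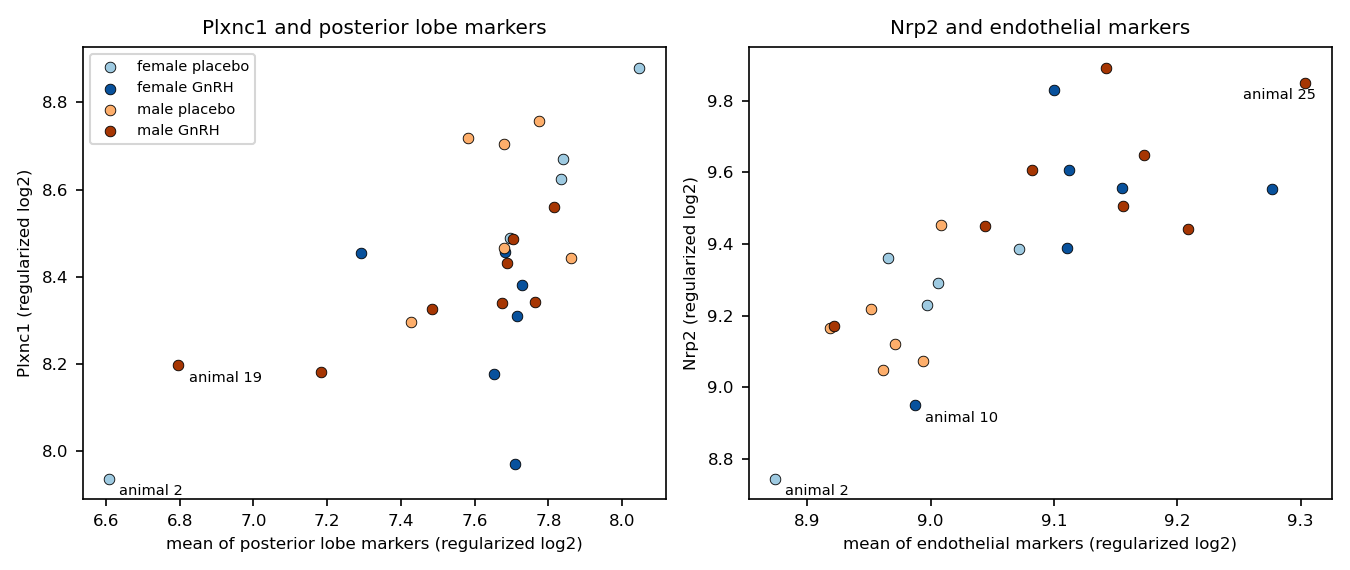
Left, Plxnc1 against the mean of the posterior lobe markers; right, Nrp2 against the mean of the endothelial markers (all axes in regularized log2 values), 1 point per animal, coloured by group. Animals 2 and 19 lie far left in the first panel, and in the second the slope of 1.78 is within groups although the GnRH animals also lie further right.

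Other genes of the guidance pathways were read from lists. The list of other guidance ligands and receptors, such as Dcc and Neo1, had 0 of 15 genes past the threshold in the averaged comparison with limma, and 2 at an unadjusted p under 0.05, both lower. The list of receptor partners, nearly all cytoplasmic but with the membrane protease Adam10 among them, had 0 of 42 past it and 9 at an unadjusted p under 0.05, 5 higher and 4 lower. Of all genes, 1.71 percent passed and 12 percent had an unadjusted p under 0.05. Whether either list differs from these shares was not tested. Chn2, a chimaerin that switches off Rac, had the smallest p of both lists (difference -0.19, SE 0.054, adjusted p = 0.0706). It was followed by the actin-severing cofilin Cfl1 (0.18, SE 0.057, adjusted p = 0.132) and by Flrt3, a membrane ligand of Unc5 receptors (-0.21, SE 0.068, adjusted p = 0.141).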

How the data were processed

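The members and gene lists were chosen with earlier results of these data known. RNA from 25 whole pituitaries was sequenced. The submitters' processing notes name bcl2fastq, STAR and featureCounts with the build mm10, without versions; the sources used here do not give the annotation or the strand setting. The deposited table holds regularized log2 values, as the authors named them. Regularization scales libraries against each other and pulls a gene's values towards its mean, most for genes with few reads, so their differences are understated. No counts were used, and depth per library is unknown. The number heading each column is the number that ends a sample's title. Nothing in the sources says more than that these are separate animals, so p-values measure the spread between them.

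The 19141 genes whose mean reached 3 entered a limma model (limma 3.58.1, R 4.3.3) with 1 mean per group, a variance trend and Benjamini-Hochberg adjustment over all of them at a threshold of 0.05. The 6 contrasts were GnRH against placebo in each sex, their average and difference, and the sexes within each treatment. The slopes on marker list means used the same model with that mean as a further term. An adjusted p is from limma unless said otherwise, tests are two-sided, and exact permutation tests ran within a sex. The exact tests ran on the named members only, and their p-values are not adjusted for that choice. Contrasts share animals. On simulated data with 200 of 19141 genes changed, the female contrast recovered 90% of changes of 0.5 and 100% of 1 on the log2 scale, and the male contrast 93% and 100%. The simulated noise was independent between genes, with 1 SD per gene in all groups and no shifts shared within a library. The changes set in exceeded every GnRH difference of the members, at most 0.39. Recovery of such smaller differences, and recovery in the averaged contrast, were not assessed. Coordinates and exon lengths are GENCODE M21's (GRCm38), where all 65 names matched, and 40 members overlap another annotated gene, 29 on the opposite strand. Opposite-strand transcripts (3 rows) were left out.

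Genes were named by rule. They are members past the threshold, the 5 smallest p in each contrast, the highest and the most variable of each family, those nearest the mean of 3, members past the threshold on a marker list, and the 3 pathway genes with the smallest averaged p. Levels per length and the genes Robo3, Slit3, Sema4b, Plxnb2 and others outside the rule were named after their values were seen. Alternatives were no filter, a mean of at least 5, quantile normalization, no variance trend, robust moderation, array weights, 1 sex at a time and leaving out each animal. Those without animals 5, 6 and 7, without 2 and 19, without 18 and 21, and with an endothelial covariate were added after seeing the data.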

Additional observations from a re-analysis of the deposited data

Results flagged for a closer look

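Single animals were far from the rest of their group in 8 of 112 groups of named members examined. Some of these members were named for their wide spread and the groups share animals, so the count cannot be set against a chance rate. In 4 of the 8 flagged groups the animal was female placebo animal 2. It was the lowest of its group for Nrp2 (8.75), Efna5 (9.17), Ntn1 (7.66) and Unc5c (8.10). The same animal had the lowest posterior lobe (6.61), melanotrope (10.72) and endothelial (8.87) marker means of its group. It was also lowest there for thyrotrope (9.55), corticotrope (10.92), pericyte and fibroblast (9.67), macrophage (8.06) and blood (10.64) markers. It was not lowest for gonadotrope, somatotrope, lactotrope, stem and folliculostellate, or Schwann and oligodendrocyte markers. The part of these marker lists in the values of the flagged members was not tested. Female placebo animal 4 was the highest of its group for Slit2 (9.99). Among GnRH females, animal 10 was the highest for Plxnb1 (12.97), animal 9 the highest for Unc5a (11.80) and animal 6 the lowest for Sema4f (7.69).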

How the results depend on the processing

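No result reversed its direction. The averaged GnRH comparison called 4 members, and it called 1 without a filter on low values, 2 without a variance trend, 1 without animals 5, 6 and 7, 1 without animals 18 and 21, and 0 with the endothelial covariate, where 10 of all genes passed. Efna3 was the member called in each of the fits that called 1, and Efna3 and Sema7a were the 2. Epha2 missed the threshold after quantile normalization (adjusted p = 0.0509) and Nrp2 with robust moderation (adjusted p = 0.0537). Without animals 18 and 21 the male comparison called 1 member (Efna3), and without animals 2 and 19 it called 1 (Nrp2, 0.45, adjusted p = 0.0294). After quantile normalization 0 relations to marker lists passed, and that of Plxnc1 had an adjusted p of 0.0543. Leaving out 1 animal at a time gave 0 to 1 members in females, 0 to 1 in males, 1 to 4 in the averaged comparison and 0 to 4 relations. It gave 0 to 0 in the other 3 contrasts. The averaged count was 1 without any of animals 4, 6, 8, 11, 13, 16, 18, 20 or 25, and 4 without 19. The male count was 1 without 18 or 20.

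The averaged count over all genes was 327 and ranged from 235 to 389 without 1 animal, and it was 942 with array weights and 149 without animals 5, 6 and 7. In females 19 genes passed (4 to 67 without 1 animal), and 7 without a filter, 62 with array weights, 1 without animals 5, 6 and 7, 32 without animals 18 and 21, and 2 with the covariate. In males 95 passed (46 to 153 without 1 animal), and 42 without a filter, 239 with array weights, 148 without animals 2 and 19, 38 without animals 18 and 21, and 3 with the covariate. The cause of these shifts was not tested. No paired analysis was possible because no animal number is shared between groups. Depth is unknown, so what it limits could not be computed; the regularized scale limits low members such as Efna3, which a filter at a mean of 5 removes.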
